A study of Mus musculus with 57 samples.

Results

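Transcripts that mark the cells of brain blood vessels were followed through the cortical astroglial translatome of growing mice. They were picked by gene symbol and number 10 of the 21118 genes in the count table, 6 of endothelial cells (Cldn5, Pecam1, Flt1, Cdh5, Ly6c1 and Itm2a) and 4 of the mural cells that wrap vessels (Pdgfrb, Rgs5, Vtn and Acta2). All were measured in 53 libraries, 1 for each animal. The mice carried the transgene Aldh1l1-L10-GFP on the C57BL/6 background, in which a GFP-tagged ribosomal protein is placed in astroglia through Aldh1l1, and every group carried it. Polysomes of whole cortex were pulled down with an antibody to GFP (translating ribosome affinity purification) and their poly(A) RNA was sequenced. Vascular cells were therefore not the cells meant to carry the tag. Females and males were sampled on postnatal days P1, P4, P7, P14 and P35 and as adults. Groups labelled female held 4, 4, 8, 5, 3 and 4 libraries at these ages, and groups labelled male held 4, 4, 4, 5, 3 and 5.

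Each library also has a number in its label, and its first digit (1, 2, 3, 4 or 6) recurs across ages and sexes. Libraries that share this digit are called a replicate set here, and the labels do not say what it stands for. Sets 2, 3, 4, 6 and S held 8, 12, 11, 8 and 4 libraries, and set 1 held 10. Set S is the 4 libraries at P7 from the second sequencing run alone. Total counts ran from 14768178 to 48541139 with a median of 24033399. P1 female 4, P7 female 40 and P14 male 4 had at least 10 counts in fewer than 15000 genes. A letter in the sample description named the other sex in 5 libraries. Sex-linked genes went against the labelled sex in 6 libraries, and all libraries stayed under their labels. No label says that littermates were kept apart, so the p-values measure the spread between these libraries.

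Brain capillaries are tubes of endothelial cells joined by tight junctions, which together with transporters form the blood-brain barrier. Pericytes lie on them within a shared basement membrane, smooth muscle surrounds the arterioles, and astrocyte endfeet cover both. Astrocytes secrete vascular growth factors whose receptors sit on endothelial cells, and endothelial PDGF-B keeps pericytes in place through the receptor encoded by Pdgfrb. After birth the cortical vessel bed grows and then matures.

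Among the endothelial members, Cldn5 (ENSMUSG00000041378, chr16:18776847-18778262 on GRCm38) encodes claudin-5, the main sealing protein of brain endothelial tight junctions. Pecam1 (chr11:106654217-106750628) and Cdh5 (chr8:104101625-104144511) encode adhesion molecules of endothelial contacts, PECAM-1 and VE-cadherin. Flt1 (chr5:147561604-147726011) encodes VEGF receptor 1. Ly6c1 (ENSMUSG00000079018, chr15:75044018-75048830) encodes a surface protein held by a lipid anchor, and Itm2a (chrX:107397099-107403376) a membrane protein found in brain endothelium. Among the mural members, Pdgfrb encodes the PDGF-B receptor of pericytes. Rgs5 (ENSMUSG00000026678, chr1:169655501-169695813) encodes a regulator that switches off G proteins and is abundant in pericytes. Vtn (chr11:78499091-78502324) encodes vitronectin, a secreted adhesion protein, and Acta2 (chr19:34241090-34255590) the actin of smooth muscle.

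Ly6c1 belongs to a cluster of close copies on chromosome 15, which bears on every value below. Of the 1764 stretches of 50 bases in its exons, 32.8% also occur in other genes, 379 of them in Ly6c2 and 195 in Ly6a. The coding sequences of Ly6c1 and Ly6c2 are both 393 bases long and differ at 9 bases (97.7% identity), 6 of them among the first 120. Those 120 bases are shown from the GENCODE M21 annotation of GRCm38 because they show how little separates the copies, with differing bases in capitals.
Ly6c1, coding bases 1 to 120: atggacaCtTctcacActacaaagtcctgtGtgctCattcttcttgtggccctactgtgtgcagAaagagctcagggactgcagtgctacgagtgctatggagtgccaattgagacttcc
Ly6c2, coding bases 1 to 120: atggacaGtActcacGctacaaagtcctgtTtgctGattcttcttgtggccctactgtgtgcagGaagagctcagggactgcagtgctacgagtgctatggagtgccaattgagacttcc
How the counting treated reads that match both is not given in the sources used here. Ly6c1 collected 6220 counts over the 53 libraries, Ly6a 3362 and Ly6c2 433. Of the other members, at most 1.54% of the 50-base stretches were shared (Pecam1), and Cdh5 is overlapped by the antisense gene Gm29682.

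Upstream sequence was taken from RefSeq (GRCm38.p6) for 7 members, namely Cldn5, Flt1, Ly6c1, Itm2a, Rgs5, Vtn and Acta2. None was found for Pecam1 or Cdh5, and Pdgfrb was left out of this search, so the counts of motifs below do not cover it. The 250 bases before the start are shown for the 3 members whose level passed a test of age and for Rgs5, which differed most between replicate sets. Capitals mark AGGAAG, the core bound by ETS factors, and TATAAA, the TATA box, on either strand, and these 2 motifs share no base in the windows shown.
Cldn5, chr16:18776597-18776846, plus strand: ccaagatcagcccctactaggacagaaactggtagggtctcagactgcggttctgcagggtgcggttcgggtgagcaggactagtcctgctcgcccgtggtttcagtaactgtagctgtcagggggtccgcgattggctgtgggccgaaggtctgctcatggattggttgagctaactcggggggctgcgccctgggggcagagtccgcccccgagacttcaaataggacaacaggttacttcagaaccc
Flt1, chr5:147726012-147726261, minus strand: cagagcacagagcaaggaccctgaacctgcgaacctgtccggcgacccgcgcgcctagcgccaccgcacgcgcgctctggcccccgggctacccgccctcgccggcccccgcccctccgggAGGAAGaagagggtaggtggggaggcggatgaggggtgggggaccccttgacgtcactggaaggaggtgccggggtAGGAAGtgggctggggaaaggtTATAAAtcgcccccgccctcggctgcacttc
Ly6c1, chr15:75048838-75049087, minus strand: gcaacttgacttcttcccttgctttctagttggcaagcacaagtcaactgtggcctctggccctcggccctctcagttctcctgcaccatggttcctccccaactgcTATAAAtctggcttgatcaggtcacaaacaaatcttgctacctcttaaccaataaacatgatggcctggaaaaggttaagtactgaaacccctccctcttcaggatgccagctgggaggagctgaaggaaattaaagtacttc
Rgs5, chr1:169655251-169655500, plus strand: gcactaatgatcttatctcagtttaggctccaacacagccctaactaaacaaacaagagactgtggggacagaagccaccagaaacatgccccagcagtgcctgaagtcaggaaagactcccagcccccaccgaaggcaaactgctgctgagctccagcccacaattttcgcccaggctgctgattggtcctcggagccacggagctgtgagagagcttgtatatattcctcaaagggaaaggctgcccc
AGGAAG was found in 29.5% of 32851 such windows and in those of 3 of the 7 members, Flt1, Itm2a and a second listed start of Ly6c1. TATAAA was found in 12.4% of windows and for Flt1, Ly6c1 and Vtn. TGGGAA, the core bound by the Notch partner CSL, was in 21.6% of windows and for Vtn and Acta2. The CArG box, which serum response factor binds in smooth muscle genes, was in 1.47% of windows and in none of the 7. A match is a string of letters and not a measured binding site.

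All 10 transcripts were present at low levels in the pull-down. The 6 endothelial members together took 18.6 to 150 CPM (counts relative to the TMM-scaled library size, in the CPM unit of edgeR) and the 4 mural members 9.07 to 110 CPM. In the same libraries 20 genes of mature astrocytes summed to 1114 to 32885 CPM and 20 neuronal genes to 2151 to 28991 CPM. Per kilobase of exon, Itm2a led with a median of 8.75 CPM, followed by Cldn5 (6.53), Rgs5 (4.62), Vtn (3.28), Acta2 (2.72), Ly6c1 (1.53), Pdgfrb (0.848), Pecam1 (0.266), Flt1 (0.212) and Cdh5 (0.120). Every pair of neighbours in this order overlapped in its range over libraries. Cdh5 was the sparsest, with a median of 13 counts per library and fewer than 10 counts in 19 libraries. Cdh5 had no count in 5 libraries, Pecam1 in 3 and Ly6c1 in 1, and a count of 0 allowed at most 0.211 CPM in any of them (3 counts, counting error only).

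**Figure D1:**
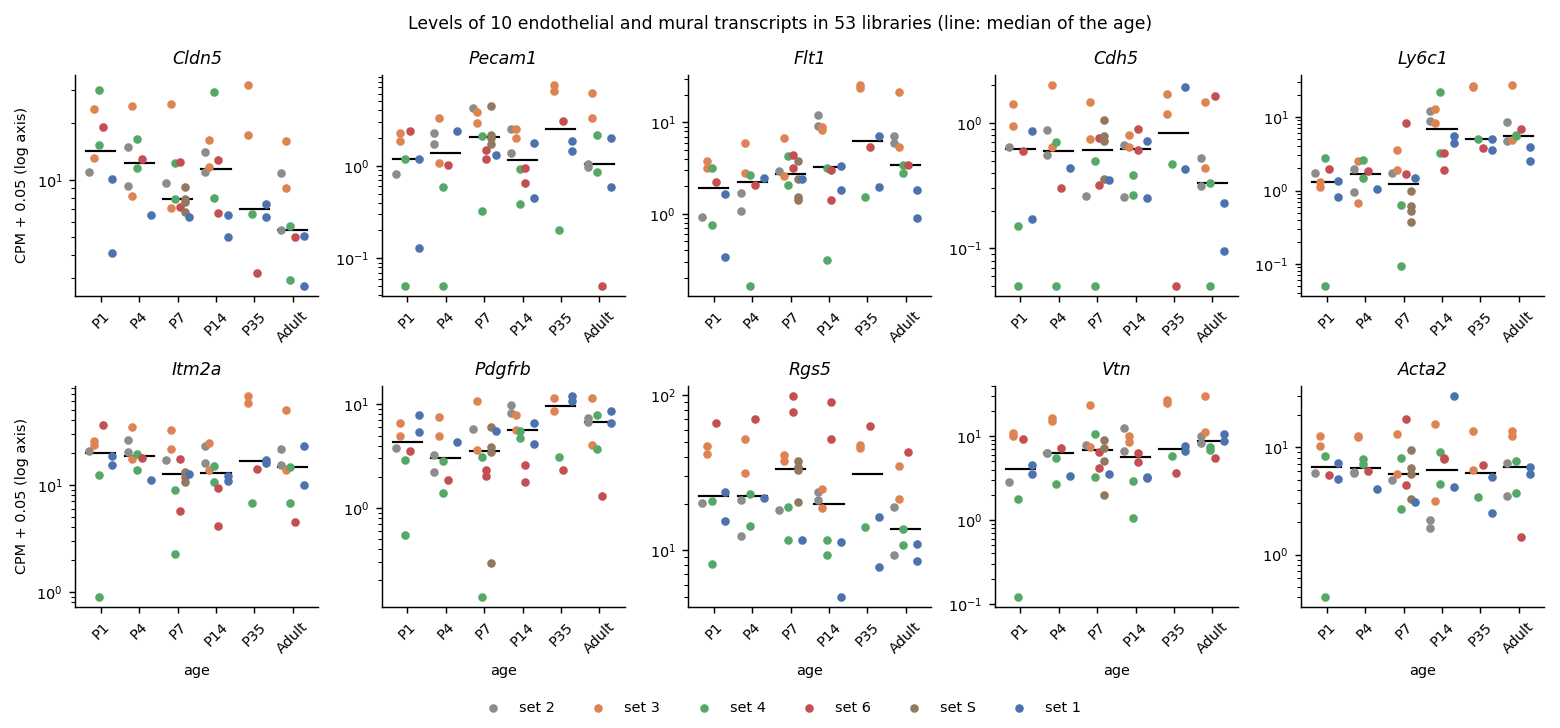
Level of each transcript in each of 53 libraries, as CPM plus 0.05 on a log axis, against age, coloured by replicate set, with a line at the median of each age. Ly6c1 lies higher from P14 on, Cldn5 drifts lower, and orange points (set 3) and red points (set 6) stand apart in several panels.

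Between P1 and adulthood, 1 member rose and 1 fell. Ly6c1 rose to 5.66 times and Cldn5 fell to 0.443 times its P1 level, and the other 8 did not pass in this model without replicate set. No member had adult libraries wholly apart from P1 libraries, as 6.26% of all genes did. Across all genes 28.1% were called in this comparison, 14.6% higher and 13.4% lower, so 2 of 10 members is near that share. The median log2 difference was 0.29 over the members and 0.06 over all genes. Less RNA per cell, fewer cells of a type and a changed makeup of the pull-down cannot be told apart in such bulk libraries.

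Cldn5 had a lowest, median and highest level of 4.04, 14.2 and 30.0 CPM at P1 and of 6.46, 12.2 and 24.5 CPM at P4. At P7 these were 6.32, 7.86 and 25.2 CPM, at P14 4.93, 11.4 and 29.4 CPM, at P35 3.13, 6.97 and 32.0 CPM, and in adults 2.67, 5.35 and 16.1 CPM. The medians ran downward with a reversal at P14, and only 2 of 9 adult libraries lay below the lowest P1 library. The mean was 6.92 ± 4.34 CPM in adults (SD, n = 9) and 15.8 ± 8.28 CPM at P1 (n = 8). The log2 difference of adult minus P1 was -1.17 ± 0.40 (SE, edgeR adjusted p = 0.0224). It was negative within each of the 5 sets that hold both ages, from -2.39 in set 4 to -0.52 in set 2. Each set held 1 or 2 libraries per age, and those of set 4 include P1 female 4, the highest P1 library. With each library left out in turn it stayed between -1.42 and -1.04, with adjusted p of at most 0.0449.

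Ly6c1 showed the opposite course. Its lowest, median and highest levels were 0, 1.28 and 2.69 CPM at P1, 0.634, 1.62 and 2.56 CPM at P4, and 0.0437, 1.17 and 8.29 CPM at P7. They were 1.88, 6.89 and 22 CPM at P14, 3.50, 4.98 and 26.1 CPM at P35, and 2.49, 5.47 and 27.5 CPM in adults. Most libraries were low up to P7 and high from P14 on, with overlap between neighbouring ages, and 8 of 9 adult libraries exceeded the highest P1 library. The mean was 7.76 ± 7.61 CPM in adults and 1.34 ± 0.804 CPM at P1. The log2 difference of adult minus P1 was 2.5 ± 0.61 (edgeR adjusted p = 0.00164). Within sets it ran from 1.57 to 3.58, the latter in set 4, where P1 female 4 had no count of Ly6c1. Its copies Ly6a and Ly6c2, whose reads may be shared with it, had differences of 3.88 ± 0.86 (adjusted p = 0.000584) and 1.86 ± 0.73 (0.0509). Ly6a encodes Sca-1, a surface protein of endothelial cells, and averaged 5.96 ± 5.73 CPM in adults and 0.377 ± 0.340 CPM at P1.

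Flt1 had medians of 1.88, 2.20, 2.70, 3.21, 6.17 and 3.40 CPM at the 6 ages, in order of age. Its range was 0.851 to 21.4 CPM in adults and 0.283 to 3.76 CPM at P1, and 4 of 9 adult libraries exceeded all P1 libraries. The log2 difference of adult minus P1 was 1.45 ± 0.63 (adjusted p = 0.0797), positive within all 5 sets (0.64 to 2.79), and it passed with DESeq2 (1.52, adjusted p = 0.0331). The remaining endothelial members did not pass in either direction. Pecam1 had medians between 0.996 CPM in adults and 2.41 CPM at P35, and a log2 difference of adult minus P1 of 0.57 ± 0.73 (adjusted p = 0.605). Cdh5 had medians from 0.279 CPM in adults to 0.777 CPM at P35 and a difference of -0.36 ± 0.77 (0.776), with an interval from -1.86 to 1.15. Itm2a had medians from 12.7 CPM at P7 to 19.6 CPM at P1 and a difference of -0.19 ± 0.47 (0.804). Cdh5 and Itm2a each changed sign when 1 library was left out. These 3 genes also differed in sign between sets.

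In models without replicate set, none of the 4 mural members passed in adult minus P1 by edgeR, DESeq2 or limma voom. None had an unadjusted edgeR p under 0.05 there. With replicate set in the edgeR model, 1 passed as higher (Vtn) and 1 as lower (Rgs5), while 41.3% of all genes were called. Rgs5 had the highest levels, with medians of 22.2, 22.3, 33.6, 19.8, 30.9 and 13.7 CPM in order of age. Its range of 8.51 to 43.2 CPM in adults lay inside that of 8.16 to 66.5 CPM at P1. That nesting rested on P1 female 4, a library with few genes, which held the lowest P1 value. The next lowest P1 library was P1 male 1 at 15.5 CPM, above the adult median of 13.7 CPM. The log2 difference was -0.75 ± 0.48 (adjusted p = 0.259), negative in all 5 sets and between -0.98 and -0.10. Vtn, with medians of 8.73 CPM in adults and 3.98 CPM at P1, had a difference of 1.01 ± 0.55 (0.174) and was higher in 4 of 5 sets. Pdgfrb (chr18:61045150-61085061) had medians of 4.32, 3.00, 3.51, 5.55, 9.62 and 6.64 CPM in order of age. Its difference was 0.54 ± 0.52 (0.469), positive in 4 sets and negative in set 6. Acta2 had the flattest medians, between 5.6 CPM at P7 and 6.54 CPM in adults, and a difference of 0.03 ± 0.47 (0.970).

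**Figure D2:**
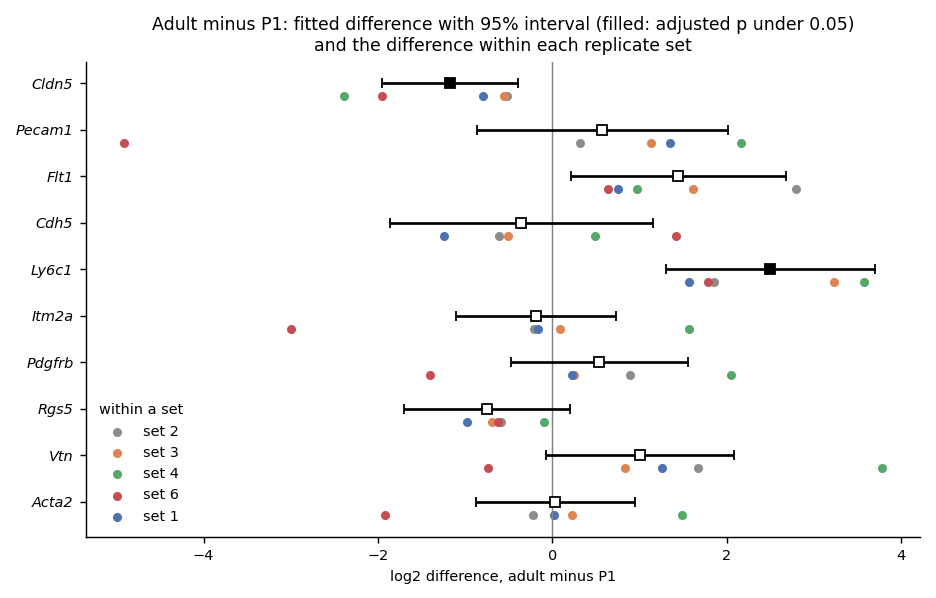
Fitted log2 difference of adult minus P1 for each transcript (squares, bars are 95% intervals, filled where the adjusted p was under 0.05), with the difference within each replicate set as coloured points. Cldn5 lies left and Ly6c1 right of 0 in all 5 sets, as do Rgs5 (left) and Flt1 (right), whose adjusted p was above 0.05.

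No member was called in any single step between neighbouring ages in edgeR. Of all genes, 0% were called in P4 minus P1, 0.152% in P7 minus P4, 0.0189% in P14 minus P7, 0.0237% in P35 minus P14 and 0% in adult minus P35. DESeq2 and limma voom called no member either. The lowest unadjusted p belonged to Ly6c1 in P14 minus P7, with a log2 difference of 1.64 ± 0.60 (p = 0.00884, adjusted p = 0.351). Itm2a in P35 minus P14, at 1.10 ± 0.49, was the other member with an unadjusted p under 0.05 (0.0287, adjusted 0.576). With 1 library left out, the value of Ly6c1 ran from 1.43 to 2.31 (without P7 male 6), and that of Itm2a from 0.42 (without P35 female 3) to 1.31. A single test of any change over the 6 ages called 2 members, Ly6c1 (adjusted p = 8.78e-05) and Flt1 (0.0239), and 24.9% of all genes. The call of Flt1 was lost without P35 female 3 or P35 male 3, which leaves 1 member.

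No member was called between females and males as a mean over the ages (0 of 10, with 0.0237% of all genes called, and none at an unadjusted p under 0.05 or by DESeq2 or limma voom). The widest log2 difference of female minus male was 0.51 ± 0.28 for Acta2 (adjusted p = 1). Ly6c1 had -0.49 ± 0.33 and Pdgfrb -0.47 ± 0.30. A test of whether the sexes differ in their course over age called no member and 0% of all genes in edgeR. Libraries at odds with their labelled sex stayed in both comparisons under their labels, which limits what these can show.

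Other vascular genes were read from lists put together with earlier results of these data known. Their counts stand beside the 14.6% of all genes called higher and the 13.4% called lower in this comparison. Of 14 angiogenic ligands, 4 rose in adult minus P1 and none fell (median log2 0.19). Apln encodes apelin, a peptide that guides vessel growth, and averaged 198 ± 118 CPM in adults and 9.37 ± 7.75 CPM at P1 (log2 4.37 ± 0.69, adjusted p = 4.46e-06). Vegfb and Vegfa encode ligands of the Flt1 protein and rose by 1.87 ± 0.52 (0.00544) and 1.40 ± 0.42 (0.0104), and Ndp, which encodes norrin, by 1.77 ± 0.65 (0.0374). Of 17 receptors 2 rose and 2 fell (median -0.21). Aplnr, the apelin receptor, averaged 0.263 ± 0.343 CPM in adults and 3.97 ± 4.44 CPM at P1 (-3.95 ± 1.09, adjusted p = 0.00488). Fzd4, the norrin receptor, rose by 1.74 ± 0.64 (0.0360). S1pr1, a lipid receptor of endothelial cells that astrocytes also express, rose by 2.65 ± 0.70 (0.00341). Notch3, a receptor of mural cells, fell by 1.77 on the log2 scale (0.00231). Tspan12, a partner of Fzd4 with a high mean, did not pass (0.97 ± 0.59, 0.223).

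Of 21 genes of barrier junctions and transport 5 rose and 3 fell (median 0.62). Those that rose encode transporters or carriers of the barrier, namely Slco1a4 (3.51 ± 1.04, adjusted p = 0.00883), Slc22a8 (1.93 ± 0.59, 0.0113), Abcb1a (2.64), Mfsd2a (1.47) and Slc2a1 (1.43), the last being the glucose transporter GLUT1. Those that fell were Cav1, the coat protein of caveolae (-1.72 ± 0.35, 0.000184), and the amino acid transporters Slc38a5 (-2.59 ± 0.75, 0.00798) and Slc7a5 (-1.07). Cldn5 fell in the same comparison, while the junction scaffold Tjp1 (1.03 ± 0.51, 0.129) did not pass. Of 26 other endothelial genes 3 rose and 3 fell (median -0.30). Ly6a, Cd34 and Nos3 rose, and the transcription factor genes Sox18 (-1.61 ± 0.42, 0.00293) and Foxq1 (-1.76 ± 0.51, 0.00823) and Pglyrp1 (-2.26 ± 0.70, 0.0125) fell. The most abundant, Ramp2 (0.73 ± 0.49, 0.285) and Sox7 (0.62 ± 0.61, 0.483), did not pass. Of 22 other mural genes 3 rose and 1 fell (median 0.29). Cox4i2, an oxygen-sensing subunit of the respiratory chain found in pericytes, rose by 2.05 ± 0.62 (0.0104), Lmod1, an actin nucleator of smooth muscle, by 2.32 ± 0.76 (0.0181) and the pericyte gene Atp13a5 by 2.69 ± 0.97 (0.0327). Myl9 (-0.72 ± 0.36, 0.129) and Heyl (0.22 ± 0.39, 0.727), both at higher levels, did not pass.

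**Figure D3:**
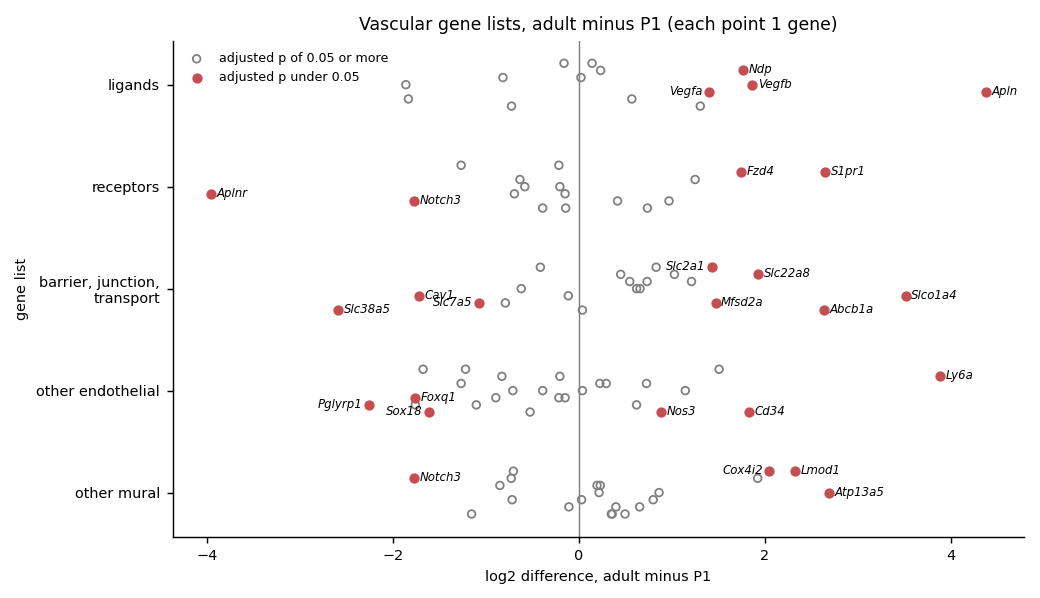
Log2 difference of adult minus P1 for each gene of 5 vascular lists (red, adjusted p under 0.05, named). Ligand genes with calls lie to the right, and each of the other lists holds calls on both sides of 0.

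Markers of other cells moved in the same comparison. Of 20 mature astrocyte genes 15 rose and none fell (median log2 2.17), all 12 oligodendrocyte genes rose (median 3.75), 3 of 12 microglial genes rose, and 11 of 20 neuronal genes rose while 3 fell. The astrocyte genes summed to 5203 to 32885 CPM in adults and 1114 to 7662 CPM at P1, and the oligodendrocyte genes to 817 to 2514 CPM and 112 to 295 CPM. Fibroblast and meningeal genes held 1 call of 13, the collagen gene Col3a1 (-2.73 ± 0.86), and summed to 39.8 to 107 CPM in adults and 37.5 to 95.5 CPM at P1. Red cell genes summed to 112 to 956 CPM in adults and 74.4 to 2051 CPM at P1. The part of these shifts in the vascular values was not tested.

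More members were called between replicate sets than between ages, and so were more of all genes (28.1% in adult minus P1, 24.9% over the 6 ages). The model of the ages held no replicate set. All 10 passed a test of any difference between sets with sex and age in the model (69.1% of all genes passed), with Rgs5 first (adjusted p = 7.35e-12) and Cdh5 last (0.0282). With 1 library left out in turn, between 8 and 10 passed. Set 2 differed from set 1 in no member and in 0% of genes (3 members had an unadjusted p under 0.05, and neither DESeq2 nor limma voom called a member).

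In set 3, 7 of 10 members were higher than in set 1 and none was lower, while 53% of all genes were called, 28.2% higher and 24.8% lower. Over the 12 libraries of set 3 and the 10 of set 1, Flt1 had medians of 6.30 and 1.84 CPM (log2 2.06 ± 0.47, adjusted p = 0.000324). Vtn had medians of 13.2 CPM in set 3 and 3.99 CPM in set 1 (1.62 ± 0.38, 0.000420). Its set 3 libraries lay above all others of their age at 4 of 6 ages, while for the other members this held at 0 (Rgs5) to 3 (Acta2) of 6 ages. How many of all genes reach such ranks in set 3 was not counted, so nothing particular to Vtn can be read from them. Cldn5 had medians of 16.2 CPM in set 3 and 6.32 CPM in set 1 (1.48 ± 0.30, 6.44e-05), and Rgs5 39.3 CPM and 11.4 CPM (1.48 ± 0.22, 3.04e-07). Pecam1 (1.49 ± 0.60, 0.0352), Ly6c1 (1.44 ± 0.50, 0.0140) and Itm2a (1.08 ± 0.35, 0.00914) were higher too. The call of Pecam1 was lost in 8 of 53 fits with 1 library left out, and that of Ly6c1 in the fit without P35 male 3 (adjusted p = 0.0612). Cdh5 (1.52 ± 0.68, 0.0555), Acta2 (0.67 ± 0.38, 0.130) and Pdgfrb (0.23 ± 0.39, 0.637) did not pass, and in no member were the libraries of set 3 and set 1 wholly apart, as they were in 9.48% of all genes.

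Many other endothelial genes were higher in set 3 too. The genes named here for sets 3, 4 and 6 were chosen after their values were seen, other than those also named for age or likeness. Of 26 other endothelial genes 16 were higher and 2 lower than in set 1 (median 1.46, against 0.11 over all genes). Ptprb, a phosphatase of vessels, averaged 8.49 ± 5.42 CPM in set 3 and 1.60 ± 0.924 CPM in set 1 (log2 2.44 ± 0.47), and the angiopoietin receptor gene Tek 3.56 ± 2.09 and 0.583 ± 0.270 CPM (2.83 ± 0.77). Ramp2 (-1.23) and Sox7 (-1.46), both at higher levels, were lower. Of 22 other mural genes 6 were higher, among them the smooth muscle myosin gene Myh11 (2.92 ± 0.68) and Cspg4 (2.39 ± 0.49), which marks pericytes and oligodendrocyte progenitors, and 3 were lower (Myl9, Heyl and Cox4i2). Neither mural count was above the 28.2% of all genes called higher and the 24.8% called lower. Of 14 ligand genes 7 were lower and 1 was higher, with Vegfb at 92.8 ± 55 CPM in set 3 and 385 ± 163 CPM in set 1, and the higher one was Pdgfb, which encodes the ligand of the Pdgfrb protein (1.29 ± 0.29). In the same sets 19 of 20 neuronal genes were higher and all 20 mature astrocyte genes lower, with neuronal sums of 7006 to 13032 CPM in set 3 and 2151 to 5885 CPM in set 1. Astrocyte sums were 1437 to 16577 CPM in set 3 and 5918 to 30037 CPM in set 1. The part of that shift in the vascular values was not tested.

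**Figure D4:**
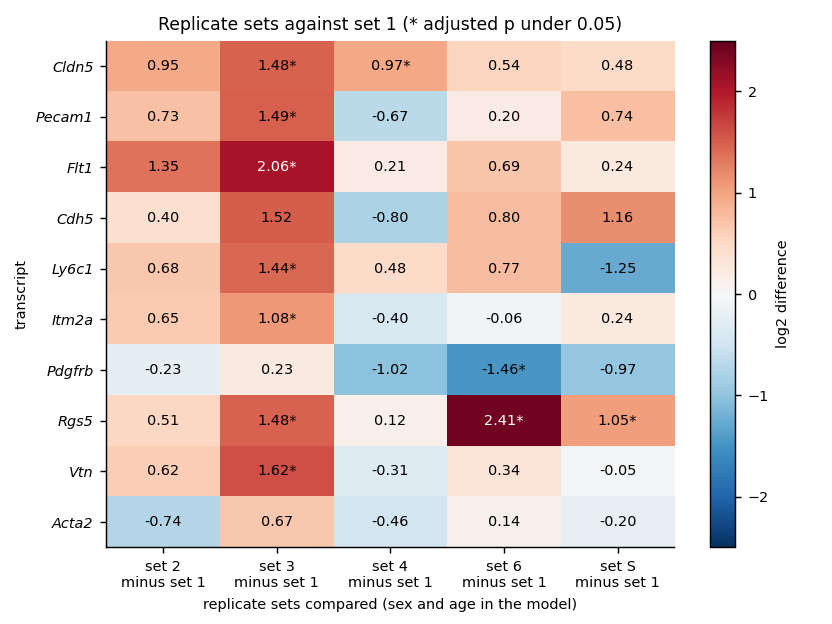
Log2 difference of each replicate set minus set 1 for each transcript, with sex and age in the model (red higher, blue lower, asterisks mark adjusted p under 0.05). Set 3 is red in all 10 rows, and in set 6 Rgs5 is at 2.41 and Pdgfrb at -1.46.

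Set 6 separated the pericyte markers. Rgs5 was higher and Pdgfrb lower than in set 1, and these 2 of 10 were the members called, against 34.3% of all genes, 17.2% higher and 17.1% lower. Rgs5 in the 8 libraries of set 6 stood at 66.5 CPM at P1, 70.3 at P4, 77.9 and 99.6 at P7, 91.2 and 52.2 at P14, 62.9 at P35 and 43.2 in the adult. At every age these lay above all other libraries of that age, and the highest value outside set 6 was 51.9 CPM, at P4. Set 1 ran from 4.93 to 23.6 CPM, and the log2 difference of set 6 minus set 1 was 2.41 ± 0.25 (adjusted p = 6.39e-10). Such a rank at all 6 ages was shared by 42 of 21118 genes (0.199%). Pdgfrb in set 6 ran from 1.27 to 3.48 CPM and in set 1 from 4.12 to 12.1 CPM, without overlap (-1.46 ± 0.47, adjusted p = 0.0127). For 9.56% of all genes the 2 sets did not overlap, against 2 of 10 members. Vtn (0.34 ± 0.43) and Acta2 (0.14 ± 0.44) did not pass, nor did any endothelial member, with differences between -0.06 for Itm2a and 0.80 for Cdh5. Low Pdgfrb was not limited to set 6. It lay below the lowest set 1 library in 8 of 11 libraries of set 4 and 3 of 4 of set S. The same held in 3 of 8 libraries of set 2 and 2 of 12 of set 3. In none of these sets was Pdgfrb called.

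Of the 22 other mural genes 3 were higher and 3 lower in set 6 (median 0.23), against 17.2% and 17.1% of all genes. Neither count was above those shares. Higd1b and Ndufa4l2, which encode small proteins of mitochondria and are abundant in brain pericytes, were higher, Higd1b at 6.85 ± 2.46 CPM in set 6 and 1.24 ± 0.505 CPM in set 1 (log2 2.37 ± 0.50, adjusted p = 0.000240) and Ndufa4l2 at 4.53 ± 1.69 and 1.77 ± 1.02 CPM (1.55 ± 0.43, 0.00460). Cald1, an actin-binding protein of smooth muscle, was higher by 0.83 ± 0.31. The receptor gene Notch3 (-1.59 ± 0.39), its target Heyl (-1.63 ± 0.29) and Myl9 (-0.76 ± 0.23) were lower. Red cell genes moved in these libraries too, with 4 of 7 higher, all globins, and a sum of 669 to 1217 CPM in set 6 and 74.4 to 290 CPM in set 1. Neuronal genes were higher in 19 of 20 and mature astrocyte genes lower in 20 of 20, as in set 3, with astrocyte sums of 1114 to 5203 CPM in set 6 and 5918 to 30037 CPM in set 1. Whether any of these shifts bears on Rgs5 or Pdgfrb was not tested.

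**Figure D5:**
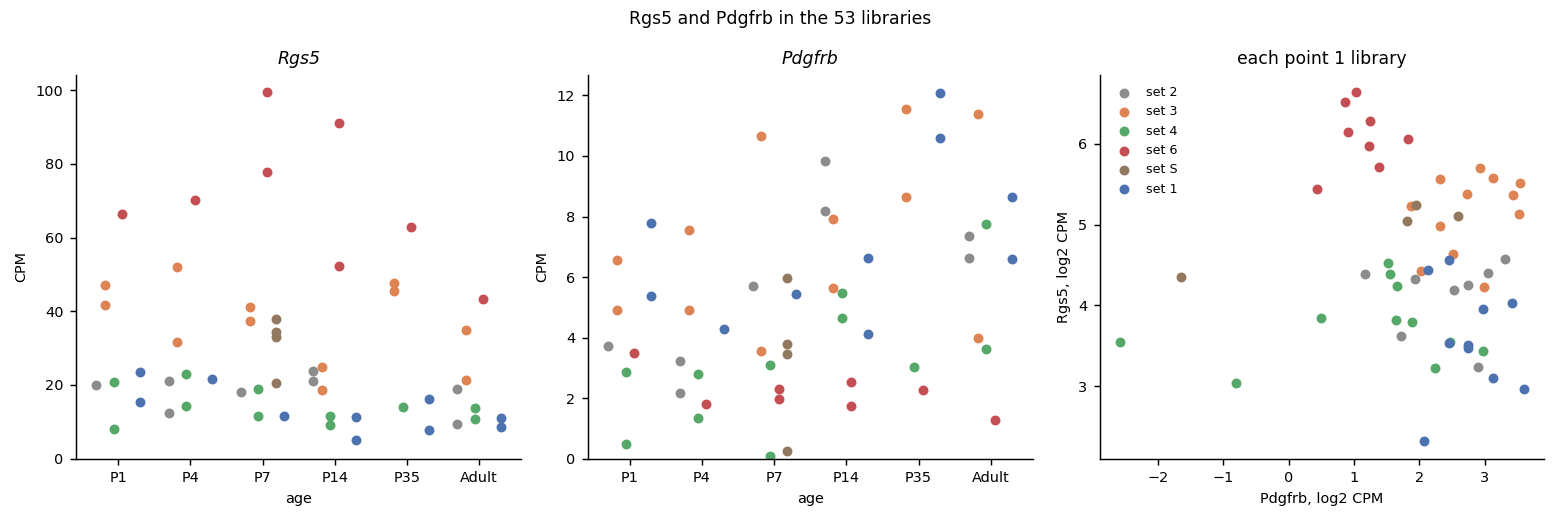
Rgs5 and Pdgfrb in CPM against age, and against each other as log2 CPM, each point 1 library coloured by replicate set. The 8 red libraries (set 6) lie between 43.2 and 99.6 CPM of Rgs5 and at or below 3.48 CPM of Pdgfrb.

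Sets 4 and S held 1 member call each. In set 4 Cldn5 was higher than in set 1 (0.97 ± 0.30, adjusted p = 0.0219, with 17.9% of all genes called, 9.56% higher and 8.3% lower), a call lost in 4 fits with 1 library left out and without the libraries with few genes (0.64, adjusted p = 0.146). In set S Rgs5 was higher (1.05 ± 0.34, 0.0165, with 32.6% of all genes called, 14.3% higher and 18.3% lower), at 20.4 to 37.8 CPM, and this was lost without P7 female S2 (0.91, adjusted p = 0.0928). Rgs5 did not pass in set 4 (0.12 ± 0.22, adjusted p = 0.753). In set 4, 4 globin genes were higher than in set 1 (red cell sum 199 to 2102 CPM), as were Higd1b (2.00) and Ndufa4l2 (1.80). Set S holds P7 libraries only, so its other values rest on that age.

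Across the 53 libraries the closest pair of members was Itm2a with Vtn (Pearson's r of log2 CPM 0.65, Spearman's rho 0.58), 1 endothelial and 1 mural. Within the endothelial members r ran from 0.05 for Cldn5 with Ly6c1 to 0.57 for Pecam1 with Itm2a, and Pecam1 with Flt1 also had 0.57. With the means of the sex and age groups taken out, r was higher for several pairs, at 0.39 for Cldn5 with Ly6c1, 0.62 for Cldn5 with Flt1 and 0.67 for Ly6c1 with Itm2a, and the endothelial range became 0.28 to 0.67. Within the mural members the pericyte pair Pdgfrb and Rgs5 had an r of -0.06 (rho -0.19), while Vtn with Acta2 had 0.45 and Vtn with Pdgfrb 0.42. With group means taken out, Pdgfrb and Rgs5 had 0.08, Vtn with Acta2 0.57 and Vtn with Pdgfrb 0.43. These points share libraries, depth and the makeup of the pull-down, and they describe the libraries only.

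Over 15486 genes with a mean of at least 1 CPM, those whose log2 CPM followed the mean of the endothelial members most closely were Ptprb (r = 0.79), Ptprj (0.78), Penk (0.77), 4632427E13Rik (0.77), Adgrl4 (0.77) and Il1rap (0.76). Ptprb and Adgrl4 are endothelial genes, and Penk encodes the opioid precursor proenkephalin of neurons. The mean of the mural members was followed most closely by Rnf157 (r = 0.85), Alcam (0.85), Cpd (0.85), Atp6ap2 (0.85), Clstn1 (0.85) and Usp35 (0.84). Clstn1 encodes a synaptic membrane protein of neurons, and none of the 6 is among the mural genes listed here. These values, too, span libraries whose neuronal and astrocyte content differs by set.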

How the data were processed

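Polysomal RNA from cortex of 53 mice was sequenced. The authors deposited raw counts per gene, with no normalization, in 1 table. Per the submitters' processing notes, CASAVA, HISAT2, SAMtools and featureCounts were used on GRCm38.p5. Not given in the sources used here are tool versions, annotation, strand setting and the treatment of reads with several matches. Overlapping or near-identical genes may therefore share counts. For 4 animals at P7 that were sequenced in 2 runs, the table holds 1 column each. These are P7 female 10, P7 male 2, P7 male 6 and P7 female 6. Their totals of 42222297 to 48541139 counts were above the median of 24033399, and the run term of the model did not mark them.

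Counts were tested in R 4.3.3 with edgeR 4.0.16 (TMM scaling, robust quasi-likelihood test, Benjamini-Hochberg adjustment over all 21118 genes, threshold 0.05). One model held the 12 groups of sex and age and a term for the second run alone, and ages were compared as means of the sexes. Sets were tested with set in place of that term. Log2 differences are given with their SE, intervals span 1.96 SE, and log2 CPM used a prior count of 2. The procedure was tested on simulated data that held no differences between replicate sets, so that test does not cover such differences. DESeq2 1.42.0, limma 3.58.1 (voom), other scalings, a low-count filter (at least 1 CPM in 10 libraries, 16657 genes), a replicate block and leaving out libraries were alternatives. Totals of 14768178 to 48541139 counts set the precision, which was low for Cdh5 and Pecam1.

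The members and gene lists were chosen with earlier results of these data known. Named beside the 10 members were, per list, up to 4 genes with the smallest adjusted p in adult minus P1 and up to 2 with the highest mean, and the 6 genes most like each member mean. Some genes this rule names are not reported here. Of 21118 gene IDs, 21021 (99.5%) were found in GENCODE M21, from which exon lengths, coordinates and shared 50-base stretches were taken. Upstream sequences were from RefSeq.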

Additional observations from a re-analysis of the deposited data

Results flagged for a closer look

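Of 100 combinations of a member with a group of 4 to 10 libraries of one sex and age, 12 held a library far from the others by Dixon's 95% limit, all on the high side. For independent values with a normal spread, chance would mark about 1 in 20, or 5. The members share libraries and raw CPM need not have that spread, so no excess over chance can be read from the 12. Of the 12, 9 were libraries of set 3 and 3 were libraries of set 6.

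Adult female 3 stood apart in 3 members, with Cldn5 at 8.97 CPM (others 4.97 to 5.61), Pecam1 at 3.26 CPM (others 0.537 to 0.996) and Acta2 at 14.1 CPM (others 6.54 to 7.37). Adult male 3 stood apart in 3 as well, with Flt1 at 21.4 CPM (others 1.77 to 7.08), Ly6c1 at 27.5 CPM (others 2.49 to 6.86) and Vtn at 30.4 CPM (others 5.46 to 10.5). P7 female 3 had 25.2 CPM of Cldn5 (others 6.32 to 12.4) and 23.6 CPM of Vtn (others 1.91 to 10.7). P4 female 3 had 7.56 CPM of Pdgfrb (others 1.33 to 2.16).

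In set 6, Rgs5 was at 77.9 CPM in P7 female 6 (others 11.6 to 41.3) and at 91.2 CPM in P14 female 6 (others 4.93 to 23.8). Ly6c1 was at 8.29 CPM in P7 male 6 (others 0.322 to 1.66).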

How the results depend on the processing

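Of 116 counts of called members under alternatives that leave out no single library, 111 stayed within 1.5 times the reported count. Of 279 values of single members, 265 kept direction and side of the threshold, 5 reversed, 4 gained and 5 lost the call. The replicate block gave 4 called members in adult minus P1, adding Rgs5 (-0.66, adjusted p = 0.0216) and Vtn (1.16, 0.0224), and 8718 genes (41.3%), against 5926 without it. Libraries of one set deviated together in 209 of 223 pairs (correlation above 0.1), the lowest pair was at -0.18, and 42 of 53 libraries matched their own set best, a hint from the data and not from the design. Leaving out the run term gave 1 member in P14 minus P7, with 6.51% of all genes called, against 0.0189% with the term. Any change over 6 ages held 1 member with limma voom, without set 6 or without the 6 libraries at odds with their labelled sex. Of all genes, these fits called 25.7%, 21.0% and 20.2%, in that order. With 1 library left out, that test held 1 to 2 members. Adult minus P1 turned for Itm2a without set 6 (0.16), and for Acta2 with total counts (-0.059), without few-gene libraries (-0.18) and without set 3 (-0.052). P7 minus P4 turned for Ly6c1 without set 6 (-0.054). With 1 library left out, adult minus P1 ran from -0.63 to 0.22 for Cdh5, from -0.49 to 0.068 for Itm2a and from -0.27 to 0.31 for Acta2. The causes were not tested. The call of Cldn5 in set 4 was also lost with total counts (adjusted p = 0.0703), and that of Rgs5 in set S without the sex-mismatched libraries (0.196). Leaving out sets 3 or 6 or the sex-mismatched libraries was chosen after seeing the data. The first run alone was not run, since each animal has 1 column. Low counts limit Cdh5 and Pecam1 most.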
